A study of Homo sapiens with 18 samples.

Results

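The 7 genes described here, MDM2, MDM4, PPM1D, CCNG1, RCHY1, RFWD2 and TP53INP1, encode regulators of the tumour suppressor p53, and they were taken by symbol from the 23368 gene rows of the count tables. All 7 were found in every table, and all 7 passed the filter on low values in each of the 11 comparisons. RNA was sequenced from SJSA-1 cells, an osteosarcoma line in which the MDM2 and CDK4 genes are amplified, in 6 groups of 3 libraries. The control group received the solvent DMSO. The Nutlin group received 20 µM of Nutlin, an antagonist of the MDM2-p53 interaction, for 6 h. The PD30 group received 10 µM of PD0332991 (Palbociclib), an inhibitor of the kinases CDK4 and CDK6, for all 30 h of the schedule, and the PD24 group received it for the first 24 h, after which it was removed. N+PD24 and N+PD30 combined each of these schedules with Nutlin in the last 6 h. The labels give 20 µM of Nutlin. A scheme in the study's supplement, for immunoblots of other cell lines, lists a lower concentration beside it. All groups were derived from the same cell line, and the study calls the replicates biological triplicates, while the labels do not say whether they came from separate cultures. The p-values measure the spread between these libraries, which may be technical.

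p53 is a transcription factor that is kept low in unstressed cells because MDM2 binds it, blocks its activation domain and marks it for degradation as a ubiquitin ligase. MDM2 is itself a p53 target gene, which closes a negative feedback loop, and its relative MDM4 (MDMX) binds p53 without strong ligase activity of its own. RCHY1 (Pirh2) and RFWD2 (COP1) encode other ubiquitin ligases of p53. PPM1D encodes the phosphatase WIP1, which removes activating phosphates from p53 and its kinases. CCNG1 encodes cyclin G1, which recruits the phosphatase PP2A to MDM2. TP53INP1 encodes a stress protein that promotes p53 phosphorylation and thus acts in the positive direction.

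Total counts per library ranged from 12704845 to 40231041, and N+PD30 replicate 1 was the shallowest. Levels are given as counts per 1000000 counts of the library (CPM). The osteoblast lineage genes RUNX2, COL1A1, COL1A2, SPARC, ALPL and SPP1 were present in every library, whereas SP7, IBSP and BGLAP did not exceed 0.244 CPM. Of 9 markers of epithelial, leukocyte and endothelial cells, VWF reached 13.5 CPM, LYZ 2.98 CPM, PECAM1 2.37 CPM and CDH1 1.65 CPM, and the other 5 stayed below 1 CPM. Of 25 proliferation genes, all 25 were lower in PD30 than in DMSO, as were 25.4% of all genes, with a median log2 fold change of -4.74. All 25 were also lower in N+PD30 than in Nutlin, as were 24.7% of all genes, with a median of -4.11. The part of this change in the results below was not tested. In bulk RNA, fewer cells of a kind and less RNA per cell cannot be told apart.

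The reference sequence near the start sites is shown because p53 binds a paired 10-base motif, and the genes differ in whether such a sequence lies there. On GRCh37, the build of the deposited counts, MDM2 spans chr12:69201957-69239324 on the plus strand, MDM4 chr1:204485507-204527248 (plus), PPM1D chr17:58677554-58743641 (plus), CCNG1 chr5:162864575-162873157 (plus), RCHY1 chr4:76404243-76439974 (minus) and RFWD2 chr1:175913967-176176422 (minus, COP1 in GENCODE). The 1000 bases on either side of the canonical start site were searched for the p53 consensus element, 2 units of 10 bases with up to 13 bases between them, with the invariant C and G of each unit required and up to 2 mismatches elsewhere. The motif is its own reverse complement, so both strands were covered. The best matches are printed 5′ to 3′ on the plus strand, with the 10-base units in capitals and any spacer in lower case.
CCNG1, chr5:162864932-162864951: GCACAAGCCCAGGCTAGTCC
MDM2, chr12:69202703-69202722: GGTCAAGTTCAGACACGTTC
MDM4, chr1:204486061-204486084: GTGCTTGTTTgaaaATGCTTGTTT
PPM1D, chr17:58677598-58677621: GGCCCAGCTCtcgcGGACAAGTCC
The CCNG1 sequence had 1 mismatch and lay 331 bases downstream of the start site, and those of MDM2 (746 bases), MDM4 (527 bases) and PPM1D (44 bases) had 2 mismatches each. The first 3 lay in the first intron of the canonical transcript, and that of PPM1D lay in the 5′ UTR of the first exon. CCNG1 held another match with 2 mismatches at chr5:162865007-162865029. For RCHY1, RFWD2 and TP53INP1 the closest sequence had 3 mismatches. Of 19869 genes scanned in the same way, 2.69% held a match with at most 1 mismatch and 17.2% a match with at most 2. A match is a description of these letters and not a measured binding site.

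MDM2 was by far the most abundant of the 7 genes per length of exon, at 312 CPM per kb in DMSO, against 41.4 for CCNG1, 9.64 for RFWD2 and between 3.29 and 4.25 for the remaining 4. Its level was 2509, 2591 and 2668 CPM in the DMSO libraries and 28174, 20840 and 19728 CPM in the Nutlin libraries. In the Nutlin libraries MDM2 had the highest count of all genes and took between 1.97 and 2.82% of the library. In PD24 it lay at 1584, 1182 and 1378 CPM, and in PD30 at 1288, 1151 and 1551 CPM. In N+PD24 it lay at 14071, 9434 and 10044 CPM, and in N+PD30 at 6225, 7780 and 7873 CPM. From lowest to highest the order of the means was thus PD30, PD24, DMSO, N+PD30, N+PD24 and Nutlin, and only the ranges of PD30 and PD24 overlapped among neighbours in that order. All Nutlin-treated libraries lay above all libraries without Nutlin.

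MDM4, the partner of MDM2 in binding p53, varied over a narrower range. It lay at 34.9, 30.9 and 42.9 CPM in DMSO, at 51.4, 40.5 and 52.9 CPM in Nutlin and at 26.2, 25.3 and 36.1 CPM in N+PD30. In N+PD24 it lay at 23.6, 20.1 and 26.0 CPM, the lowest mean of the 6 groups. Each group's range overlapped that of its neighbour in the order of means, and the N+PD24 libraries all lay below those of Nutlin.

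PPM1D, the WIP1 phosphatase gene, lay at 37.8, 41.8 and 40.4 CPM in DMSO and at 77.4, 71.5 and 58.5 CPM in Nutlin. It was lowest in PD24, at 15.99, 15.6 and 17.8 CPM, followed by PD30, at 21.1, 20.1 and 22.8 CPM. The N+PD30 libraries, at 42.6, 44.3 and 49.3 CPM, lay between DMSO and Nutlin without overlap, and those of N+PD24, at 38.4, 29.9 and 35.7 CPM, overlapped DMSO.

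CCNG1, the cyclin G1 gene, lay at 113, 130 and 142 CPM in DMSO and at 258, 214 and 238 CPM in Nutlin. Its N+PD30 libraries, at 193, 250 and 281 CPM, covered the whole Nutlin range. PD24, at 67.9, 67.6 and 81.1 CPM, lay below all other groups, and PD30, at 120, 116 and 161 CPM, overlapped DMSO.

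TP53INP1 lay at 20.4, 22.1 and 24.1 CPM in DMSO and at 133, 94.0 and 102 CPM in Nutlin. With PD0332991 its replicates spread widely, at 25.0, 20.5 and 42.5 CPM in PD30 and at 86.7, 128 and 206 CPM in N+PD30. Replicate 3 was the highest library in both of these groups and in PD24, at 11.4, 13.1 and 19.1 CPM. The same held in DMSO and in N+PD24, at 93.8, 79.7 and 105.5 CPM, but not in Nutlin.

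RCHY1 and RFWD2, the other ubiquitin ligase genes, were not raised by Nutlin. RCHY1 lay at 21.3, 22.0 and 24.0 CPM in DMSO and at 10.7, 9.69 and 11.8 CPM in Nutlin, which was below every other library. In N+PD30 it lay at 19.0, 16.2 and 17.9 CPM. RFWD2 was the steadiest of the 7 genes, with group means between 27.8 ± 0.355 CPM in N+PD30 and 40.3 ± 3.24 CPM in DMSO (SD, n = 3).

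The first comparison asked how the 7 genes responded to Nutlin alone. MDM2 rose most, by 3.27 on the log2 scale (SE 0.15, 9.67-fold, adjusted p = 5.45e-07, edgeR's quasi-likelihood test). TP53INP1 rose by 2.43 (SE 0.14, adjusted p = 1.92e-06), CCNG1 by 1.01 (SE 0.11, adjusted p = 4.89e-05) and PPM1D by 0.92 (SE 0.13, adjusted p = 0.000195). MDM4 rose by 0.54 (SE 0.14, adjusted p = 0.00828), although its ranges in both groups overlapped. RCHY1 fell by 0.94 (SE 0.12, adjusted p = 0.000122). RFWD2 had a log2 fold change of -0.28, with a 95% interval from -0.52 to -0.03 and an adjusted p of 0.0527. Its adjusted p was 0.0112 with scaling by total counts, 0.0406 with no filter and 0.568 with quantile normalization. It was 0.0373 without DMSO replicate 1, 0.0193 without Nutlin replicate 1 and 0.16 without Nutlin replicate 2. Thus 6 of the 7 genes were called, 5 higher and 1 lower, in a comparison in which 54.6% of 15766 genes were called (26.6% higher, 28% lower). With an absolute log2 fold change over 1 required in addition, MDM2, TP53INP1 and CCNG1 were left, 3 of the 7 genes, against 20.8% of all genes.

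Of 49 other p53 target genes tested, 44 rose and 1 fell, with a median of 1.63. Over all genes 26.6% rose and 28% fell, with a median of 0.03. CDKN1A, the cell cycle inhibitor p21, rose by 4.56 (SE 0.16), GDF15, a secreted stress cytokine, by 4.27 (SE 0.31) and SPATA18, a mitochondrial quality control gene, by 3.82 (SE 0.12), and the one that fell was PMAIP1, which encodes the pro-apoptotic NOXA, by 0.83 (SE 0.10). Among 40 other regulators of p53 and MDM2, 10 rose and 18 fell, with a median of -0.21, against the same 26.6% and 28% over all genes. The largest falls were those of DTL, a ubiquitin ligase subunit that fell by 2.16, and SIRT1, a p53 deacetylase that fell by 1.98. The largest rises were those of TP63, a p53 relative with at most 20 counts in any of these libraries (log2 1.26), and CDKN2A, whose product ARF inhibits MDM2 (log2 0.51). Among 19 p53 kinases and phosphatases with their regulators, 2 rose and 7 fell, again against 26.6% and 28% over all genes. The p53 kinase genes TP53RK and CHEK1 fell by 1.43 and 1.39, and PPP1R13L, a p53 inhibitor, and ATM, a DNA damage kinase, rose by 1.00 and 0.56.

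PD0332991 alone lowered MDM2 and PPM1D under both schedules. In PD30 against DMSO, MDM2 fell by 0.98 (SE 0.10, adjusted p = 5.52e-05, edgeR), PPM1D by 0.92 (SE 0.09, adjusted p = 4.45e-05) and RFWD2 by 0.46 (SE 0.09, adjusted p = 0.00287). These were 3 of the 7 genes, against 48.3% of 15125 genes called (22.9% higher, 25.4% lower). None of the 3 exceeded a log2 fold change of 1, as 15.2% of genes did. MDM4 (-0.10, 95% interval -0.45 to 0.24), CCNG1 (0.03, -0.27 to 0.33), RCHY1 (-0.20, -0.43 to 0.04) and TP53INP1 (0.39, -0.13 to 0.90) were not called.

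In PD24 against DMSO, with the same control libraries, MDM2 fell by 0.88 (SE 0.11, adjusted p = 0.000258, edgeR), PPM1D by 1.26 (SE 0.11, adjusted p = 3.22e-05) and CCNG1 by 0.81 (SE 0.11, adjusted p = 0.000719). TP53INP1 fell by 0.59 (SE 0.18, adjusted p = 0.0305). Its call was lost without DMSO replicate 2 (adjusted p = 0.085), DMSO replicate 3 (0.0846), PD24 replicate 1 (0.085) or PD24 replicate 2 (0.0816), and with quantile normalization (0.0895). These were 4 of the 7 genes, all lower, against 38.3% of 15094 genes (17.5% higher, 20.8% lower). Past a log2 fold change of 1, PPM1D was the 1 gene left, against 12.6% of all genes. MDM4 (-0.32, 95% interval -0.69 to 0.04), RCHY1 (0.17) and RFWD2 (-0.14) were not called.

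The 2 schedules of PD0332991 were compared directly. CCNG1 was higher in PD30 than in PD24 by 0.84 (SE 0.14, adjusted p = 0.00287, edgeR) and TP53INP1 by 0.97 (SE 0.27, adjusted p = 0.0288). The call of TP53INP1 was lost without PD24 replicate 1 (adjusted p = 0.105), PD24 replicate 2 (0.0636) or PD30 replicate 3 (0.0889). Of 15171 genes, 25.2% were called (12.2% higher, 12.9% lower), and 7.49% with a log2 fold change over 1, none of the 7 among them. With the replicate number as a block, PPM1D (log2 0.34, adjusted p = 0.0251), RCHY1 (-0.36, 0.0237) and RFWD2 (-0.32, 0.0233) were called as well, and the genes called overall went from 3816 to 6107. They were 2178 without PD30 replicate 1 and 2520 without PD30 replicate 3. MDM2 differed by -0.09, with a 95% interval from -0.39 to 0.20.

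The central comparison of the study set the combinations against Nutlin alone. In N+PD30 against Nutlin, MDM2 was lower by 1.70 on the log2 scale (SE 0.17, adjusted p = 2.53e-05, edgeR), a 3.24-fold lower level. MDM4 fell by 0.77 (SE 0.16, adjusted p = 0.00218) and PPM1D by 0.65 (SE 0.14, adjusted p = 0.00306). RCHY1 was higher by 0.69 (SE 0.15, adjusted p = 0.00328). CCNG1 (-0.02, 95% interval -0.33 to 0.29), RFWD2 (-0.17, -0.45 to 0.11) and TP53INP1 (0.30, -0.24 to 0.85) were not called. TP53INP1 had a log2 fold change of 0.54 (adjusted p = 0.0418) without N+PD30 replicate 1, and of -0.05 without N+PD30 replicate 3. Thus 4 of the 7 genes were called, 3 lower and 1 higher, in a comparison in which 49% of 15721 genes were called (24.3% higher, 24.7% lower). Past a log2 fold change of 1 only MDM2 remained of the 7 genes, against 22.3% of all genes.

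**Figure D1:**
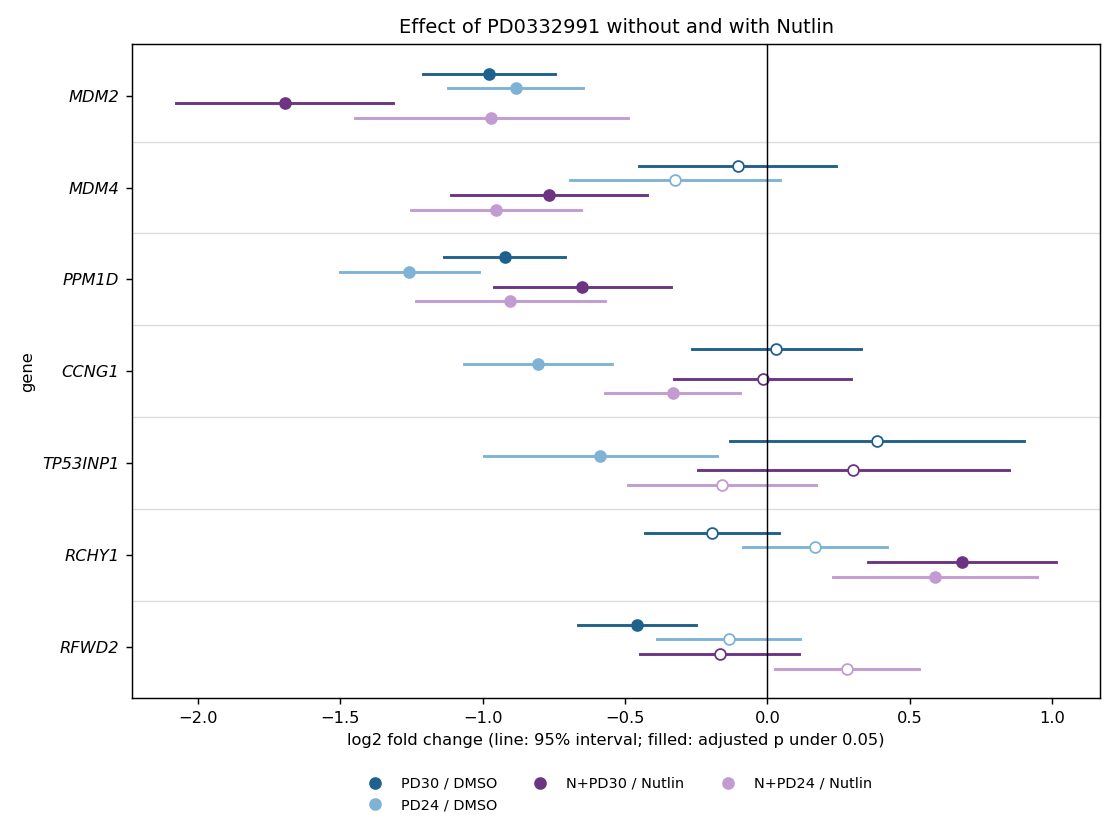
Log2 fold change (horizontal axis) of each gene with PD0332991 for 30 h or 24 h, against DMSO or, in the presence of Nutlin, against Nutlin. Points are estimates, lines are 95% intervals, and filled points have an adjusted p under 0.05. MDM2 and PPM1D lie below 0 in all 4 comparisons, MDM4 has filled points with Nutlin (-0.77 and -0.95), and RCHY1 lies above 0 with Nutlin (0.69 and 0.59).

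The other p53 targets did not move together in this comparison. Of 50 tested, 15 were higher and 18 lower in N+PD30 than in Nutlin, with a median of -0.15, against 24.3% higher and 24.7% lower over all genes. The largest falls were those of SFN (14-3-3 sigma), by 2.64, TNFRSF10A, a death receptor gene, by 2.14, and KITLG, the KIT ligand gene, by 1.77. SFN had between 29 and 39 counts per Nutlin library and 3, 5 and 4 in N+PD30. TNFRSF10A had 71, 56 and 87 counts in Nutlin and 9, 12 and 14 in N+PD30, so both falls rest on few counts. The largest rises were those of the cytokine gene LIF (1.63), PANK1, an enzyme of coenzyme A synthesis (1.45), and the stress gene GADD45A (1.15). CDKN1A fell by 0.78 (SE 0.14, adjusted p = 0.000998, edgeR). Of 39 other regulators, 5 rose and 8 fell. DTL fell by 5.17 and the p53 relative TP73 by 4.68, and TP53INP2, a relative of TP53INP1, rose by 1.72 and the tumour suppressor gene RASSF1 by 1.42. Of 19 kinases and phosphatases, 5 rose and 9 fell, among them the checkpoint kinase genes CHEK2 (fell by 1.78) and CHEK1 (fell by 1.35), while TP53RK rose by 1.37 and MAPK14, which encodes p38, by 0.56.

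N+PD24 was tested against the same Nutlin libraries with limma, since its values were deposited in normalized form. MDM2 was lower by 0.97 (SE 0.21, adjusted p = 0.00695, limma), MDM4 by 0.95 (SE 0.13, adjusted p = 0.000646), PPM1D by 0.90 (SE 0.15, adjusted p = 0.00155) and CCNG1 by 0.33 (SE 0.10, adjusted p = 0.0348). RCHY1 was higher by 0.59 (SE 0.16, adjusted p = 0.0178). The call of MDM2 was lost with quantile normalization (-0.53, adjusted p = 0.078) and without the filter on low values (-1.01, 0.072). That of CCNG1 was lost without Nutlin replicate 1, N+PD24 replicate 2 or N+PD24 replicate 3 (adjusted p between 0.1 and 0.104) and without an intensity trend (0.0551), and that of RCHY1 without Nutlin replicate 2 (0.0801) or N+PD24 replicate 3 (0.053). In all, 5 of the 7 genes were called, against 37.4% of 13953 genes (18.6% higher, 18.8% lower). None of the 7 exceeded a log2 fold change of 1, as 8.03% of genes did. RFWD2 differed by 0.28 (adjusted p = 0.0772), and with the replicate block it was called (adjusted p = 0.0108), as were 7952 genes in place of 5222.

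Between the 2 combinations, MDM2 was lower in N+PD30 than in N+PD24 by 0.74 (SE 0.19, adjusted p = 0.0152, limma) and RFWD2 by 0.47 (SE 0.12, adjusted p = 0.0141). These were 2 of the 7 genes, both lower, against 32.7% of 13644 genes (16.1% higher, 16.6% lower), and 7.52% of genes, none of the 7 among them, also exceeded a log2 fold change of 1. The MDM2 call was lost with quantile normalization (-0.13, adjusted p = 0.668) and without the filter (-0.70, 0.129). The RFWD2 call was lost with scaling by total counts (-0.33, adjusted p = 0.0516) and without N+PD24 replicate 2 (0.0524) or N+PD30 replicate 2 (0.0715), which took the genes called in all from 4456 to 2572 and 2703. Without N+PD30 replicate 1, the shallowest library, CCNG1 (0.42, adjusted p = 0.0287) and TP53INP1 (0.66, 0.0349) were called higher in N+PD30. MDM4 (0.17, 95% interval -0.18 to 0.53) and PPM1D (0.25, -0.04 to 0.54) were not called.

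The response to Nutlin was next measured within each PD0332991 background, in libraries that share no sample with the Nutlin and DMSO groups. In N+PD30 against PD30, MDM2 rose by 2.55 (SE 0.14, 5.84-fold, adjusted p = 2.72e-05, edgeR), TP53INP1 by 2.34 (SE 0.34, adjusted p = 0.005), PPM1D by 1.18 (SE 0.10, adjusted p = 0.000339) and CCNG1 by 0.95 (SE 0.16, adjusted p = 0.00873). The CCNG1 call was lost without PD30 replicate 1 (adjusted p = 0.0536). These were 4 of the 7 genes, all higher, against 14.5% of 15077 genes (8.84% higher, 5.64% lower). MDM2, TP53INP1 and PPM1D also exceeded a log2 fold change of 1, as 3.68% of genes did. The 2183 genes called in all became 4375 with the replicate block, 583 without PD30 replicate 1, 1150 without PD30 replicate 2, 1064 without PD30 replicate 3, 625 without N+PD30 replicate 2 and 3384 without N+PD30 replicate 3, so the share over all genes is itself uncertain. The other p53 targets were higher in 42 of 48 cases and lower in none, with a median of 1.66.

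In N+PD24 against PD24, MDM2 rose by 3.18 (SE 0.18, 9.03-fold, adjusted p = 5.22e-06, limma), TP53INP1 by 2.78 (SE 0.18, adjusted p = 9.51e-06), CCNG1 by 1.47 (SE 0.12, adjusted p = 3.22e-05) and PPM1D by 1.19 (SE 0.14, adjusted p = 0.000183). Here too 4 of the 7 genes were higher, against 36.9% of 13624 genes called (16.4% higher, 20.5% lower). All 4 exceeded a log2 fold change of 1, as 8.99% of genes did, and 42 of 47 other p53 targets were higher. The 5023 genes called in all became 2832 without N+PD24 replicate 2. RCHY1 had a log2 fold change of -0.45 (adjusted p = 0.0515, and 0.00505 with the replicate block). It was also called with edgeR on the recovered reads (0.0437), scaling by total counts (0.0158) and no filter (0.0493). Without N+PD24 replicate 1 its adjusted p was 0.0323, and without N+PD24 replicate 2 it was 0.209. MDM4 was not called in either background, at -0.13 (95% interval -0.52 to 0.25) with PD30 and -0.11 (-0.47 to 0.26) with PD24.

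**Figure D2:**
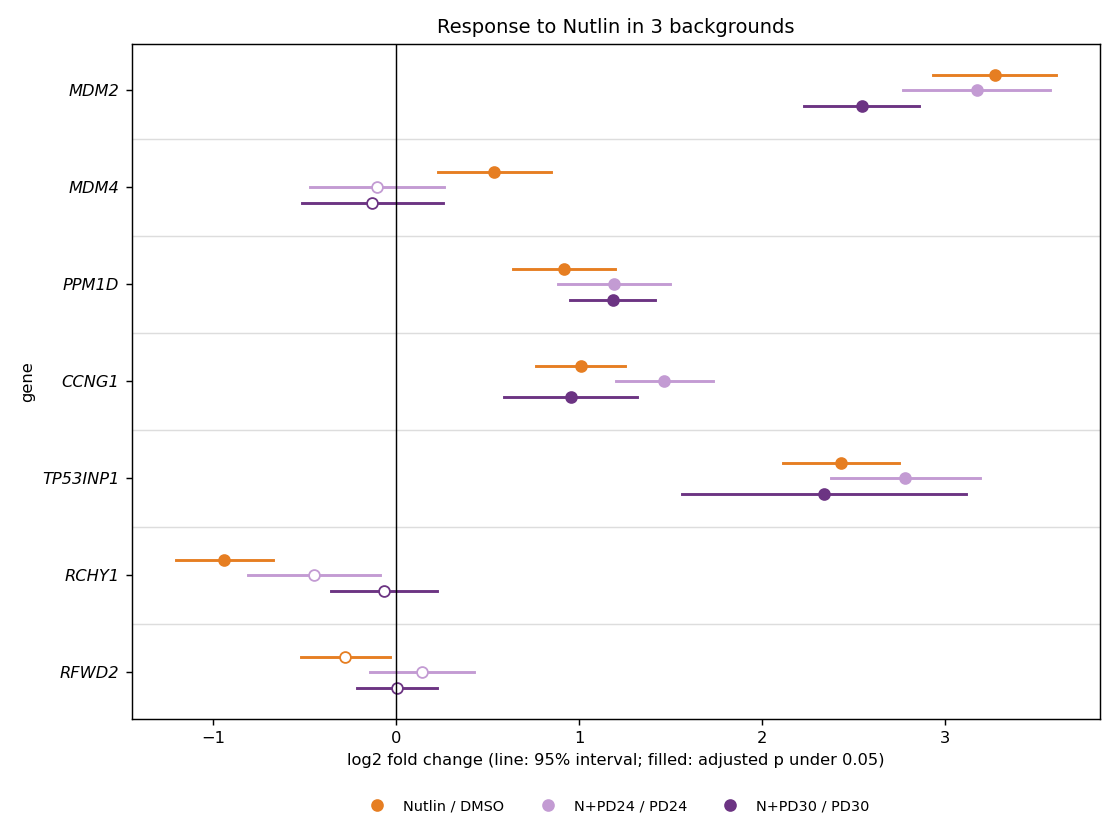
Log2 fold change of each gene with Nutlin (horizontal axis) in cells without PD0332991, with the 24 h schedule and with the 30 h schedule. Points are estimates, lines are 95% intervals, and filled points have an adjusted p under 0.05. MDM2, PPM1D, CCNG1 and TP53INP1 rose in all 3 backgrounds, MDM4 was called only without PD0332991 (0.54 against -0.11 and -0.13), and RCHY1 lies at -0.94 without PD0332991, -0.45 with the 24 h schedule and -0.07 with the 30 h schedule.

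Whether these responses differed between backgrounds was tested with an interaction term over 12 libraries. With the 30 h schedule, the response of RCHY1 differed by 0.92 (SE 0.16, adjusted p = 0.00196, edgeR), beside log2 fold changes of -0.94 without and -0.07 with PD0332991. That of MDM2 differed by -0.68 (SE 0.20, adjusted p = 0.0326), beside rises of 3.27 without and 2.55 with PD0332991. These were 2 of the 7 genes, against 19.8% of 16113 genes (12.8% with a positive and 7.03% with a negative difference). Neither exceeded 1 in size, as 10.2% of genes did. The RCHY1 difference was called under every alternative and without each library in turn. The MDM2 difference was lost without any of DMSO replicates 1, 2 or 3 (adjusted p = 0.0689, 0.0665 and 0.0552), Nutlin replicate 1 (0.0613), PD30 replicates 1 or 3 (0.0524 and 0.0829) or N+PD30 replicate 1 (0.0569). With quantile normalization it was 0.02. That method gives genes of the same rank the same value in every library. MDM2 had rank 1 in all 3 Nutlin libraries, 2 or 3 in N+PD30, 12 to 15 in DMSO and 42 to 78 in PD30. The part of these ranks in the value of 0.02 was not tested.

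The MDM4 difference with the 30 h schedule was -0.62 (SE 0.23, adjusted p = 0.0776 in edgeR, 0.0428 in DESeq2), with a 95% interval from -1.12 to -0.12. It was called without DMSO replicate 3 (adjusted p = 0.0479), PD30 replicate 2 (0.0413) or N+PD30 replicate 3 (0.029), and with quantile normalization (0.0193). The differences of PPM1D (0.31, 95% interval -0.04 to 0.67), CCNG1 (-0.01, -0.45 to 0.44), RFWD2 (0.33, 0.04 to 0.62) and TP53INP1 (-0.04, -0.90 to 0.81) were not called. Of 50 other p53 targets, 13 had a positive and 9 a negative difference, against 12.8% and 7.03% of all genes. A positive difference can be a larger rise or a smaller fall with PD30. CDKN1A differed by -0.17 (SE 0.21) and was not called.

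With the 24 h schedule, 0 of the 7 responses differed from that without PD0332991 by limma at the adjusted threshold, where 1.62% of genes did (0.923% positive, 0.699% negative, and 0.874% over 1 in size). edgeR on the recovered reads also called 0. The MDM4 difference was -0.67 (95% interval -1.15 to -0.19, adjusted p = 0.194, limma), that of CCNG1 was 0.43 (0.10 to 0.76) and that of RFWD2 was 0.38 (0.06 to 0.70). That of RCHY1 was 0.40 (-0.02 to 0.82, adjusted p = 0.43, limma) and that of MDM2 was -0.11 (-0.66 to 0.43). The 232 genes called in all became 106 without Nutlin replicate 2, and 138, 109 and 131 without DMSO replicates 1, 2 and 3. CDKN1A responded more strongly with PD24, by 1.13 (SE 0.19, adjusted p = 0.0101, limma).

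**Figure D3:**
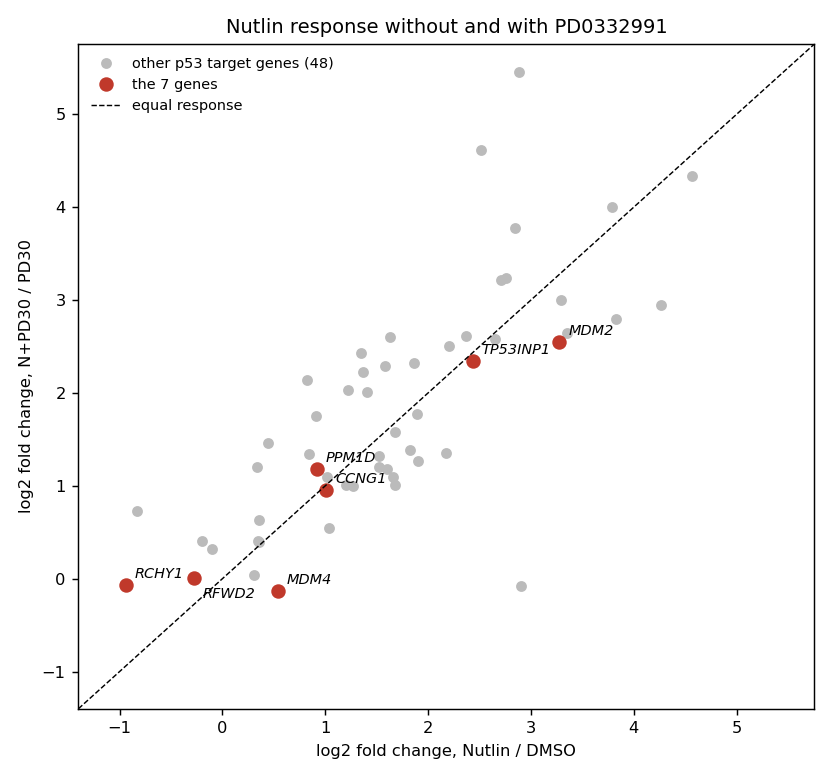
Log2 fold change with Nutlin in cells without PD0332991 (horizontal axis, Nutlin against DMSO) and with PD0332991 for 30 h (vertical axis, N+PD30 against PD30), for 48 other p53 target genes in grey and the 7 genes in red. The dashed line marks equal response, with 27 of the 48 genes above it and 21 below. The share of all genes above the line was not counted, and their median difference in the interaction test was 0.06. MDM2 and MDM4 lie below the line while RCHY1 lies above it.

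The ratio of MDM2 to MDM4 counts within a library does not depend on how libraries are scaled. It was 71.9, 84.0 and 62.2 in DMSO and 549, 514 and 373 in Nutlin. In PD24 it was 51.8, 53.1 and 42.2, and in PD30 36.3, 42.0 and 39.3. The PD30 libraries all lay below those of PD24, and both groups below DMSO. With Nutlin it was 596, 469 and 387 in N+PD24, which overlapped Nutlin alone, and 238, 308 and 218 in N+PD30, which lay below both. The ratio of RCHY1 to RFWD2 counts, from 2 ligase genes, was 0.578, 0.538 and 0.555 in DMSO and 0.323, 0.348 and 0.388 in Nutlin. Without Nutlin it was higher with PD0332991 than in DMSO, at 0.694, 0.694 and 0.672 in PD24 and 0.601, 0.680 and 0.723 in PD30. With Nutlin it was 0.485, 0.361 and 0.508 in N+PD24, which overlapped Nutlin alone and lay below PD24, and 0.691, 0.573 and 0.647 in N+PD30, which lay above Nutlin alone and overlapped PD30.

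**Figure D4:**
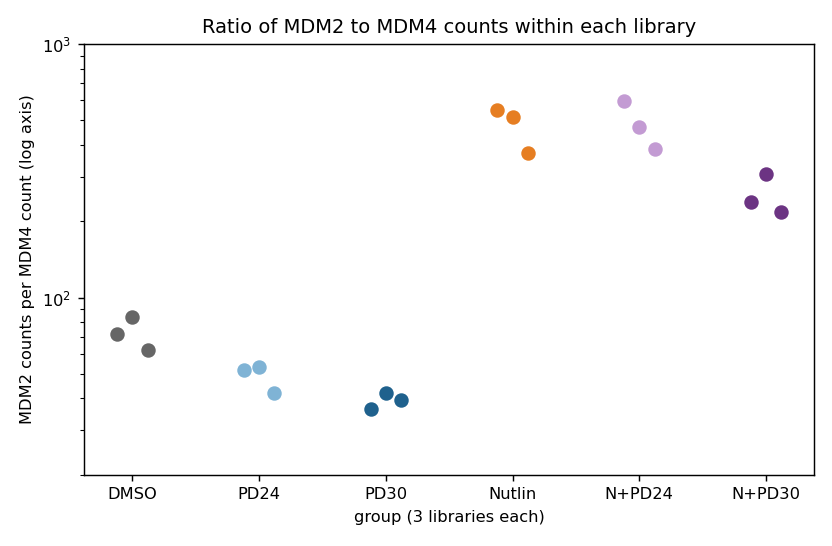
MDM2 counts per MDM4 count in each library (logarithmic vertical axis), by group. Nutlin (373 to 549) and N+PD24 (387 to 596) overlap, N+PD30 (218 to 308) lies below both, and the libraries without Nutlin lie between 36.3 and 84.0.

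Several of these genes share sequence with others. The library kit is not stated to keep the strand, so reads of genes on opposite strands may have been mixed where they overlap. MDM2 overlaps the carboxypeptidase M gene (symbol CPM), which rose by 0.98 with Nutlin and was lower by 0.64 in N+PD30 than in Nutlin, at group means between 68.1 and 197 CPM, far below MDM2. RCHY1 overlaps THAP6, which moved the same way, falling by 0.69 with Nutlin (adjusted p = 0.0025, edgeR) and rising by 0.56 in N+PD30 against Nutlin (adjusted p = 0.0281), at a level close to that of RCHY1, and the part of shared reads in the RCHY1 result was not tested. TP53INP1, on chromosome 8, overlaps NDUFAF6, listed as C8orf38, which lay between 6.92 and 19.6 CPM and fell by 1.36 in N+PD30 against Nutlin. RFWD2 contains SCARNA3, which had at most 2 counts in any library. MDM2 and MDM4 each overlap a processed pseudogene in the annotation. Whether reads of the 7 genes were divided with pseudogenes was not tested.

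The genes whose pattern was most like that of each regulator were found by the root mean square difference of the 6 centred group means of log2(CPM + 1), over 13552 genes. For MDM2 they were HSPA4L, a heat shock protein gene (0.25), CSPG4 (0.37) and CSMD3 (0.38), and HSPA4L went from 21.1 CPM in DMSO to 149 CPM in Nutlin. CSPG4 and CSMD3 lay at 0.61 and 0.72 CPM in DMSO and at 17.8 and 22.4 CPM in Nutlin. The added 1 narrows the fold of genes at such low levels, so a similar pattern there is not a similar fold. For PPM1D they were NTN1 (0.12), RAD51C, a DNA repair gene (0.14), and APAF1, an apoptosome gene (0.18), and for CCNG1 COBLL1 (0.14), AKAP3 (0.16) and USP49 (0.18). For TP53INP1 they were VWCE (0.29), GPR172B (0.30) and BBC3, which encodes the pro-apoptotic PUMA (0.33). VWCE and GPR172B were also low in DMSO, at 0.33 and 0.24 CPM. For MDM4 they were TTC28, LOC202781 and CTNND2 (0.11 each). For RCHY1 they were METTL13 (0.062), RPUSD4 (0.079) and PGBD3 (0.084), and for RFWD2 TSPAN12 (0.03), RFESD (0.054) and GPR89A (0.062). The group means of RFWD2 spanned only 0.51 on the log2 scale and those of MDM4 and RCHY1 1.02 and 1.14, against 4.10 for MDM2.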

How the data were processed

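Tables of counts per gene symbol were used for DMSO, Nutlin, PD24, PD30 and N+PD30, which the authors had made by mapping reads to hg19 with TopHat and Bowtie2 and counting with HTSeq 0.6.0 in its reverse-stranded setting. The N+PD24 values were deposited as a normalized signal, counts divided by a size factor per library. Multiplied back, 100% of them were whole within 0.001. Further tables of normalized signal and the authors' own table of Nutlin against DMSO (fold changes and p-values) were not used.

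Counts were tested with edgeR 4.0.16 (quasi-likelihood test, TMM, filterByExpr, R 4.3.3) between the 2 groups compared, and comparisons with N+PD24 with limma 3.58.1 with an intensity trend on log2(CPM + 1), on genes at 1 CPM or more in at least 3 libraries. Fold changes of these are thus on the log2(CPM + 1) scale. Adjusted p-values are Benjamini-Hochberg over all genes tested, and genes under 0.05 were called. Several comparisons share control libraries. The genes named besides the 7 are CDKN1A, overlapping genes, the largest called falls and rises in Nutlin against DMSO and N+PD30 against Nutlin (3 each of the other p53 targets, 2 each of the other regulators and of the kinases and phosphatases) and the 3 most similar genes. Of the genes this rule selects, 1 is not reported here. The 7 genes and the lists were chosen with earlier results of these data known. Alternatives were DESeq2 1.42.0, edgeR on the recovered reads, scaling by total counts, quantile normalization, no filter, a pseudocount of 0.1, no intensity trend, a replicate block and leaving out each library. Simulated data were used to test the fits of Nutlin against DMSO, N+PD30 against Nutlin, N+PD24 against Nutlin and the difference with PD30. These data had the same dispersion for every gene and no replicate effect, and the other fits were not tested in this way.

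The labels number the replicates but give no shared batch. Same-numbered libraries deviated together (all correlations over 0.1) in PD30 against PD24 (0.31 to 0.58), N+PD24 against Nutlin (0.45 to 0.67), N+PD30 against PD30 (0.20 to 0.68) and N+PD24 against PD24 (0.22 to 0.57), and these met the rule for pairing. Their main fits stayed without the block, as planned, and the blocked value is given where it changes a call or a count. The library kit's strandedness and the sequencer model are not settled by the sources used here. Counts of a gene limit precision: the lowest here was 242 for RCHY1 in N+PD30 replicate 1. The number of libraries per group (3) limits all tests.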

Additional observations from a re-analysis of the deposited data

Results flagged for a closer look

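The responses of 2 of the 7 genes to Nutlin differed between cells with and without 30 h of PD0332991, by the interaction term of edgeR over 12 libraries. RCHY1 differed by 0.92 on the log2 scale (SE 0.16, adjusted p = 0.00196), since it was lower in all 3 Nutlin libraries than in all 3 DMSO libraries, while its N+PD30 and PD30 libraries overlapped. The overlapping gene THAP6 had a difference of 0.59 (adjusted p = 0.0835). MDM2 differed by -0.68 (SE 0.20, adjusted p = 0.0326), and this call was lost when any 1 of 7 libraries was left out.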

How the results depend on the processing

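Of the 7 genes' log2 fold changes over the 11 comparisons and the alternatives, 888 values kept direction and call, 29 lost the call, 30 gained it and 40 changed sign. Each sign change was of a value that was not called, except that of MDM2 in the difference with PD30, which was 0.022 with quantile normalization. By that method the difference with PD24 was 0.55 for MDM2, MDM4 was 0.0371 in PD30 against DMSO and 0.0279 in N+PD24 against PD24, MDM2 0.000618 in PD30 against PD24, CCNG1 0.0133 in N+PD30 against Nutlin, RCHY1 -0.0969 in N+PD30 against N+PD24 and RFWD2 -0.00243 in N+PD30 against PD30. By total counts CCNG1 was 0.0276 in N+PD30 against Nutlin, and RFWD2 -0.0896 in N+PD30 against PD30 and -0.0265 in N+PD24 against PD24. Without the filter CCNG1 was 0.00161 in N+PD30 against Nutlin and 0.00347 in the difference with PD30, and RFWD2 -0.0183 in N+PD30 against PD30, where DESeq2 gave -0.000726. The cause of these changes was not tested.

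Where leaving out 1 library turned a sign, the values ranged, for CCNG1, from -0.12 to 0.11 in PD30 against DMSO, -0.11 to 0.109 in N+PD30 against Nutlin and -0.103 to 0.171 in the difference with PD30, for MDM4 from -0.212 to 0.0262 in PD30 against DMSO and -0.28 to 0.00616 in N+PD30 against PD30, for MDM2 from -0.206 to 0.0118 in PD30 against PD24 and -0.306 to 0.0584 in the difference with PD24, for RCHY1 from -0.148 to 0.116 in N+PD30 against N+PD24 and -0.134 to 0.00726 in N+PD30 against PD30, for RFWD2 from -0.00559 to 0.0387 in N+PD30 against PD30, and for TP53INP1 from -0.047 to 0.542 in N+PD30 against Nutlin and -0.396 to 0.345 in the difference with PD30.

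With an absolute log2 fold change over 1 required in addition, the genes called of the 7 were 3 in Nutlin against DMSO, 1 each in PD24 against DMSO and N+PD30 against Nutlin, and 0 in PD30 against DMSO, PD30 against PD24, N+PD24 against Nutlin, N+PD30 against N+PD24 and the difference with PD30. Of all genes, 3277 were then called in Nutlin against DMSO, 2305 in PD30 against DMSO, 1898 in PD24 against DMSO, 1137 in PD30 against PD24, 3510 in N+PD30 against Nutlin, 1121 in N+PD24 against Nutlin, 1026 in N+PD30 against N+PD24, 555 in N+PD30 against PD30, 1225 in N+PD24 against PD24, 1647 in the difference with PD30 and 125 in that with PD24. Of the 7, DESeq2 and the replicate block each called 5 in PD30 against PD24, and scaling by total counts or no filter 1 in N+PD30 against N+PD24.

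With the replicate block, 6107 genes were called in PD30 against PD24, 7952 in N+PD24 against Nutlin and 4375 in N+PD30 against PD30. In the comparisons where the libraries share only a number, same-numbered correlations reached down to -0.32, and the block called MDM4 in PD24 against DMSO (-0.33, adjusted p = 0.0366), in the difference with PD30 (adjusted p = 0.00454) and, with 1 of the 7 and 423 of all genes called, in the difference with PD24 (0.0145). It changed no call of the 7 genes beyond these and those named beside the results. In the difference with PD24, edgeR on the recovered reads called 116 genes and a pseudocount of 0.1 called 135, against 232.

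Leaving out 1 library gave between 7122 and 8661 genes called (6 to 7 of the 7) in Nutlin against DMSO, 5898 and 7135 (3 to 4) in PD30 against DMSO, 3902 and 5850 (3 to 4) in PD24 against DMSO, 2178 and 4117 (1 to 2) in PD30 against PD24, 6147 and 7686 (4 to 5) in N+PD30 against Nutlin, 3610 and 4956 (3 to 5) in N+PD24 against Nutlin, 2572 and 4311 (1 to 4) in N+PD30 against N+PD24, 583 and 3384 (3 to 4) in N+PD30 against PD30, 2832 and 4201 (4 to 5) in N+PD24 against PD24, 2264 and 3281 (1 to 3) in the difference with PD30, and 106 and 203 (0 of the 7) in that with PD24.

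The share of higher genes among all called depended on scaling. By total counts it went from 48.7 to 36.7% in Nutlin against DMSO, from 49.2 to 66% in N+PD30 against N+PD24, from 61.1 to 43.8% in N+PD30 against PD30 and from 44.4 to 24.9% in N+PD24 against PD24. By quantile normalization it went from 47.5 to 58.2% in PD30 against DMSO, from 45.6 to 55.7% in PD24 against DMSO and from 64.5 to 49.8% in the difference with PD30. Total counts put the median of all genes at 0.12 in N+PD30 against N+PD24 and -0.13 in N+PD24 against PD24.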

Other observations

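Genes of the chromosome 12 region that holds both MDM2 and CDK4 moved in both directions. The list does not separate genes beside MDM2 from genes beside CDK4. The study places the 2 genes close together but says that their amplifications appear independent in most cases. Of 13 genes of the region tested, 5 rose and 4 fell with Nutlin, with a median log2 fold change of -0.15, where 26.6% of all genes rose and 28% fell. With PD0332991 more of them were lower than higher. In PD30 against DMSO 2 rose and 8 fell (median -0.35, against 22.9% higher and 25.4% lower over all genes), and in PD24 against DMSO 2 rose and 5 fell (median -0.10, 17.5% and 20.8%). In N+PD30 against Nutlin 2 rose and 5 fell (median -0.37, 24.3% and 24.7%), and in N+PD24 against Nutlin 3 rose and 5 fell (median 0.05, 18.6% and 18.8%). With Nutlin alone METTL1, a tRNA methyltransferase gene beside CDK4, fell by 1.54 and YEATS4, a chromatin reader gene, by 1.47, while SLC35E3 rose by 0.62 and TSPAN31 by 0.51. CDK4 itself had a log2 fold change of -0.18 (SE 0.13) with Nutlin and was not called, and it fell by 0.31 in PD30 against DMSO (SE 0.09, adjusted p = 0.0231, edgeR). These genes were singled out after their values were seen.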
